A study of Mus musculus with 4 samples.

Results

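The 10 immediate early response genes Fos, Fosb, Junb, Jund, Egr1, Ier2, Atf3, Nr4a1, Zfp36 and Btg2 were taken by gene symbol from a table of 50593 genes, and each symbol was found once. They were measured by RNA sequencing of sciatic nerve of 2 groups of mice aged 6 months, HSF V30M and HSF WT, of the strain that the labels name 129S1/SvImJ and the methods Sv/129. HSF V30M mice carry the human TTR V30M transgene, the variant of transthyretin that causes hereditary amyloid polyneuropathy, on an endogenous Ttr-null background. HSF WT mice carry no transgene. Mice of both groups are heterozygous for a deletion of Hsf1, the gene of heat shock factor 1, and the methods name no treatment. The labels list 2 samples per group, while the methods give n = 4 without stating if that counts the mice of each group, and the promoter of the transgene is not given in the sources used here. The methods state that the animals were killed with an injection of ketamine plus medetomidine. The time of day and the interval until the nerve was frozen are not given in the sources used here. The table holds 1 value per gene and group, which the authors obtained with Cuffdiff as FPKM, a number of fragments divided by transcript length in kilobases and by sequencing depth. No value per mouse is at hand, so the values below carry no error between mice and no test between the groups was possible.

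Immediate early genes are transcribed within minutes of a stimulus, without the need for new protein synthesis, because the factors that switch them on are already present in the cell. Growth factors, depolarisation, injury and stress reach their promoters through the MAP kinases and through cyclic AMP, which act on serum response factor with its ternary complex partners and on CREB. Their mRNAs are short-lived, and in peripheral nerve members of this class, such as Atf3 and the AP-1 gene Jun, are known to be raised in Schwann cells after axon damage. Fos, Fosb, Junb, Jund and Atf3 encode leucine zipper proteins of the AP-1 and ATF type, Egr1 a zinc finger transcription factor, Nr4a1 an orphan nuclear receptor and Ier2 a nuclear protein. Zfp36 (tristetraprolin) binds AU-rich elements and Btg2 an mRNA deadenylase, and so both act on mRNA decay.

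Starts of 4 of these genes are shown because they carry the cyclic AMP type elements of the class: Nr4a1, with the largest ratio between the groups, and Fos, Btg2 and Atf3, with ratios close to 1. Fosb and Junb, with plain ratios of 0.834 and 1.26, also carry such elements and are not shown. A link between these elements and the ratios was not tested. The sequences are from RefSeq on GRCm38.p6, from 250 bases before to 50 after the annotated start, read 5′ to 3′ on the strand of the gene. Capitals mark TGACG, the core of the cyclic AMP response element, or CGTCA on the other strand, the variant TGCGTCA or TGACGCA, GCGGGGGCG or CGCCCCCGC, which is the site of EGR proteins, the CArG box of serum response factor and TATAAA.
Nr4a1, chr15:101266596-101266895, plus strand: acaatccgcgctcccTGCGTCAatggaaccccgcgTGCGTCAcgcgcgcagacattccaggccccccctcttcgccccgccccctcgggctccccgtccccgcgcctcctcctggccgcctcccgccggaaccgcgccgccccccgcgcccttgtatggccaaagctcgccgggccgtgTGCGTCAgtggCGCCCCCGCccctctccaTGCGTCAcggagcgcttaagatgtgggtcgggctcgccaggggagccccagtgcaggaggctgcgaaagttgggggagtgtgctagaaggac
Fos, chr12:85473640-85473939, plus strand: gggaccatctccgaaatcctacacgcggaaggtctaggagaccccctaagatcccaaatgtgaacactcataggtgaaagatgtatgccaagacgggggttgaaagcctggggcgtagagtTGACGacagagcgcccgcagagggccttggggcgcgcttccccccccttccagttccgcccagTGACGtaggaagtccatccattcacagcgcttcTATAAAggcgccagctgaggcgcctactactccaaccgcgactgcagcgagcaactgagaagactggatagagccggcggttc
Btg2, chr1:134079106-134079405, minus strand: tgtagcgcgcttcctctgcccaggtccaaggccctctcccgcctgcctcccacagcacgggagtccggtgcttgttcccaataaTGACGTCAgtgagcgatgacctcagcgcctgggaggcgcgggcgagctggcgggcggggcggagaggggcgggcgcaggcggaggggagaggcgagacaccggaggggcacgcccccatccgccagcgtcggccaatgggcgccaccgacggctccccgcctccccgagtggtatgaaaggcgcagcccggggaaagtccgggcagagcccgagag
Atf3, chr1:191183284-191183583, minus strand: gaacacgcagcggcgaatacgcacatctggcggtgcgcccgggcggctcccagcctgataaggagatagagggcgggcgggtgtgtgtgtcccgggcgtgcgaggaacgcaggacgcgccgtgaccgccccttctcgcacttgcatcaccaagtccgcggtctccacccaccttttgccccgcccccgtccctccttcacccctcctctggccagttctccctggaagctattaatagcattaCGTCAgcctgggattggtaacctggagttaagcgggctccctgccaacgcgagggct
Of the 10 genes, 8 had a promoter in the table of 32851 promoters, while Egr1 and Ier2 had none and could not be searched. The core TGACG, searched on both strands, was in 6 of the 8 and in 20.8% of all promoters of this length. The palindrome TGACGTCA, which contains the core, was in the Btg2 promoter and in 1.79% of all promoters. The variant TGCGTCA, which was searched for only after the sequences had been read, was in 2 of the 8, Fosb and Nr4a1, against 2.12% of all promoters, and Nr4a1 holds 4 copies. Each copy contains CGTCA and is thus also counted as a match of the core. The EGR site GCGGGGGCG was in Fosb, Nr4a1 and Zfp36 and in 2.91% of all promoters. A CArG box was in Zfp36 and in 1.63% of all promoters, TATAAA was in Fos and Junb and in 13.6%, and the AP-1 site TGANTCA was in none of the 8 and in 7.81%. The windows of Jund and Zfp36 lie 1210 and 1025 bases from the start of their GENCODE transcripts, so the matches of Zfp36 are away from that start, while the other 6 windows are within 35 bases of it. A match describes the letters of this window and not binding. Bases further than 250 before the start were not searched, so a missing match does not mean that the gene lacks the site.

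Part of the 3′ end of 6 of these mRNAs is shown because TATTTAT (with U for T in the mRNA) is the core that Zfp36 protein is known to bind. The stretches of 29 bases are from the GENCODE M21 transcripts on GRCm38, 5′ to 3′, all in the 3′ untranslated part, with the first TATTTAT of each gene in capitals.
Fos, chr12:85477103-85477131, plus strand: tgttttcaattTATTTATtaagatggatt
Fosb, chr7:19303326-19303354, minus strand: ccacccccagcTATTTATccctttcctgg
Jund, chr8:70700359-70700387, plus strand: cgattccgcccTATTTATgtttctactcg
Atf3, chr1:191170338-191170366, minus strand: aaaatattactTATTTATcccagtattcc
Zfp36, chr7:28376966-28376994, minus strand: agtgggcccttTATTTATgacgactttat
Btg2, chr1:134077249-134077277, minus strand: aaatgaagagcTATTTATacatgtttttt
Zfp36 itself has 3 copies and Fos has 2, while Junb, Egr1, Ier2 and Nr4a1 have none. At least 1 copy was thus found in 6 of 10 genes, against 29.6% of the 12556 coding genes that reach a mean FPKM of 1 and have a 3′ untranslated part, and against 27.6% of the 6142 whose 3′ untranslated part is as long as those of the 10 genes. The genes are also compact. Their chosen coding transcripts had a median of 2 exons and a genomic span with a median of 3710.5 bases, against 9 exons and 22565 bases for the 12556 genes.

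All 10 genes were expressed in nerve of both groups, with an FPKM between 1.94 and 52.4, and all passed the minimum mean FPKM of 1. The order of the levels was nearly the same in the groups. In HSF WT it was Jund, Nr4a1, Fos, Junb, Zfp36, Egr1, Atf3, Btg2, Ier2 and Fosb, and in HSF V30M Junb stood before Fos. Jund lay above 87.0% of the 15620 genes that reach a mean FPKM of 1 in HSF WT and above 90.2% in HSF V30M, whereas Fosb lay above 18.7% and 15.5%. Between the groups the genes differed little. On the scale log2((HSF V30M + 1) / (HSF WT + 1)) the median of the 10 ratios was 0.08, with 7 genes above 0 and 3 below, beside a median of 0.00 over all genes with the minimum. Counted as past a fold of 1.5 on this scale, which is 0.585 in log2, 1 of the 10 genes was higher in the group labelled HSF V30M, namely Nr4a1, and 0 were lower. Over all genes, 8.22% were past the fold as higher and 8.44% as lower, so the count of 1 in 10 is near the background.

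**Figure D1:**
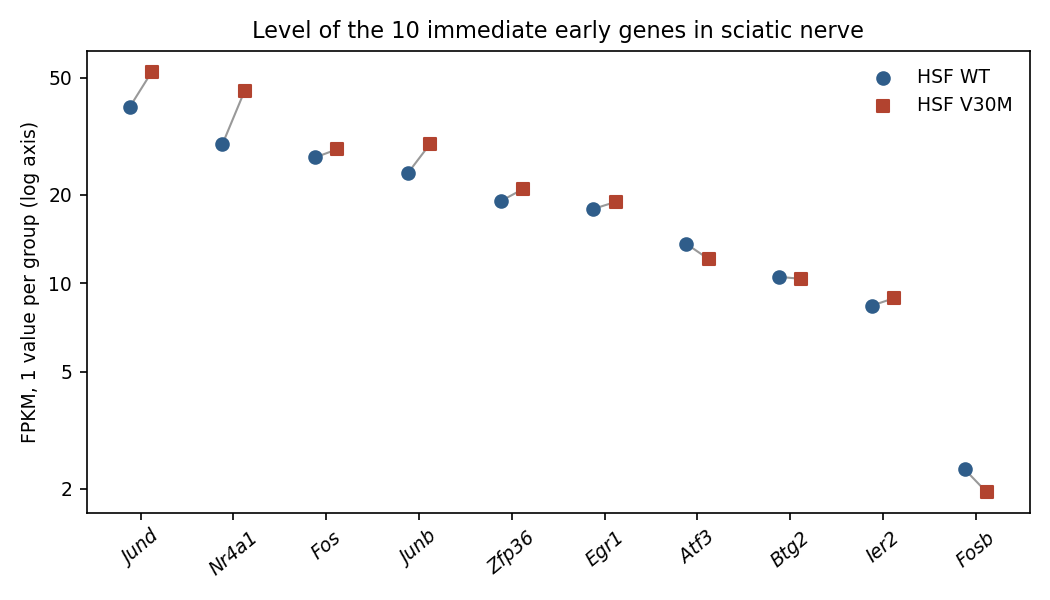
FPKM of the 10 genes on a log axis, with a blue circle for HSF WT, a red square for HSF V30M and 1 value per group, ordered by the HSF WT level. The values run from 52.4 for Jund to 1.94 for Fosb, and the steepest line is that of Nr4a1, from 29.6 to 45.1.

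Fos, which pairs with Jun proteins to form AP-1, had 28.6 FPKM in HSF V30M against 26.8 in HSF WT, a log2 ratio of 0.09. It lies on chromosome 12 from 85473890 to 85477273 (plus strand, 4 exons). These values rest on about 1187 to 1402 fragments in HSF V30M and 789 to 1065 in HSF WT. The number of fragments was read from the steps between low FPKM values, and gives a 95% counting interval of the plain ratio from 0.974 to 1.17, which covers counting error only. Fosb, a Fos paralogue whose shorter splice form is known to persist after repeated stimulation, was the lowest of the 10, with 1.94 in HSF V30M against 2.33 in HSF WT. Its ratio of 0.834 had a counting interval from 0.655 to 1.06, and the table does not separate the 7 annotated transcripts of the locus on chromosome 7, 19302696 to 19310051 (minus strand). The HSF WT value rests on only 128 to 174 fragments. Neither Fos gene thus differed beyond counting error. Atf3, which is switched on by cell stress and by axon injury, had 12.1 and 13.6, a ratio of 0.887 with an interval from 0.773 to 1.02. It lies on chromosome 1 from 191170296 to 191183340 (minus strand, 4 exons), and 375 to 506 fragments stand behind its HSF WT value. Relative to Fos of the same group, the level of Fosb was 0.0679 times in HSF V30M against 0.0869 times in HSF WT, and that of Jund 1.83 against 1.48 times.

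Jund, the Jun gene that is known to be the least dependent on a stimulus, had 52.4 FPKM in HSF V30M against 39.7 in HSF WT. Its log2 ratio was 0.39, and the counting interval of its plain ratio of 1.32 ran from 1.22 to 1.43, above 1 and below the fold of 1.5. Jund has 1 exon, at positions 70698949 to 70700616 of chromosome 8 (GRCm38, plus strand). The antisense gene Gm11175, on the minus strand from 70699162 to 70700080, lies inside that exon and had 128 FPKM in HSF V30M against 90.0 in HSF WT, above Jund itself. The sources used here do not say that the counting used strand, so reads of Jund and of its antisense gene cannot be told apart, and the Jund value is uncertain. Junb, a rapidly induced Jun gene, had 29.8 and 23.7, a log2 ratio of 0.32. In the table Junb is written with the locus 84956610 to 84976542 of chromosome 8, which holds its non-coding transcript of 492 bases, ending at 84976542, together with Prdx2 and Rnaseh2a. The coding transcript of Junb, 1809 bases in 1 exon from 84976910 to 84978718, lies outside that locus. This was the case in 20 of 21727 coding genes of the table, and whether the Junb value counts the coding transcript cannot be read from the table. For this reason no number of fragments is given for Junb. Prdx2, whose 3′ end overlaps the non-coding Junb transcript on the other strand, had 64.6 in HSF V30M against 51.0 in HSF WT.

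Egr1, a zinc finger factor induced through serum response factor, had 18.9 FPKM in HSF V30M against 17.9 in HSF WT, and the counting interval of its ratio of 1.06 ran from 0.981 to 1.14, with 1184 to 1598 fragments in HSF WT. The gene has 2 exons on chromosome 18, from 34859823 to 34864984 (plus strand). Ier2, a gene of 1 exon that responds to growth factors and lies on chromosome 8 from 84661331 to 84662852 (minus strand), had 8.89 and 8.39. Its ratio was also 1.06, with the wider interval from 0.870 to 1.29, since only 171 to 231 fragments stand behind its HSF WT value. Both genes differed by less than counting error.

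Nr4a1, also known as Nur77, was the gene with the largest ratio of the 10. It has 7 exons on chromosome 15, from 101266846 to 101274795 (plus strand). It stood at 45.1 FPKM in HSF V30M (2237 to 2640 fragments) and at 29.6 in HSF WT (1043 to 1407 fragments). The plain ratio of 1.52 had a counting interval from 1.41 to 1.64. On the log2(FPKM + 1) scale the ratio was 0.589, just past the fold at 0.585, and the counting interval holds 1.5, so counting error alone leaves the side of the threshold unsettled. Of all genes with the minimum, 83.5% had a smaller difference in either direction. Against other genes of the same library group, which needs no scaling between groups, the level of Nr4a1 was 1.58 times that of Fos in HSF V30M and 1.11 times in HSF WT. Relative to Egr1 it was 2.39 and 1.66 times. Fos and Egr1 had plain ratios of 1.07 and 1.06 between the groups, so these quotients largely repeat the ratio of Nr4a1. Against Jund or Junb, with plain ratios of 1.32 and 1.26, the contrast would be smaller.

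Zfp36 had 20.9 FPKM in HSF V30M against 19.0 in HSF WT. The counting interval of its ratio of 1.10 ran from 1.003 to 1.21, on a chosen transcript of 2790 bases. The RefSeq start lies 1025 bases from the start of that transcript. A shorter transcript would give fewer fragments and a wider interval, and the lower end is already close to 1. Zfp36 lies on chromosome 7 from 28376784 to 28380253 (minus strand). Its locus in the table is shared with Med29 and with the antisense gene Gm44710, which had 1.55 in HSF V30M. Btg2, a growth inhibitor of the BTG and TOB family on chromosome 1 from 134075170 to 134079120 (minus strand, 2 exons), had 10.3 and 10.5, the smallest difference of the 10, with a ratio of 0.984 and an interval from 0.865 to 1.12.

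**Figure D2:**
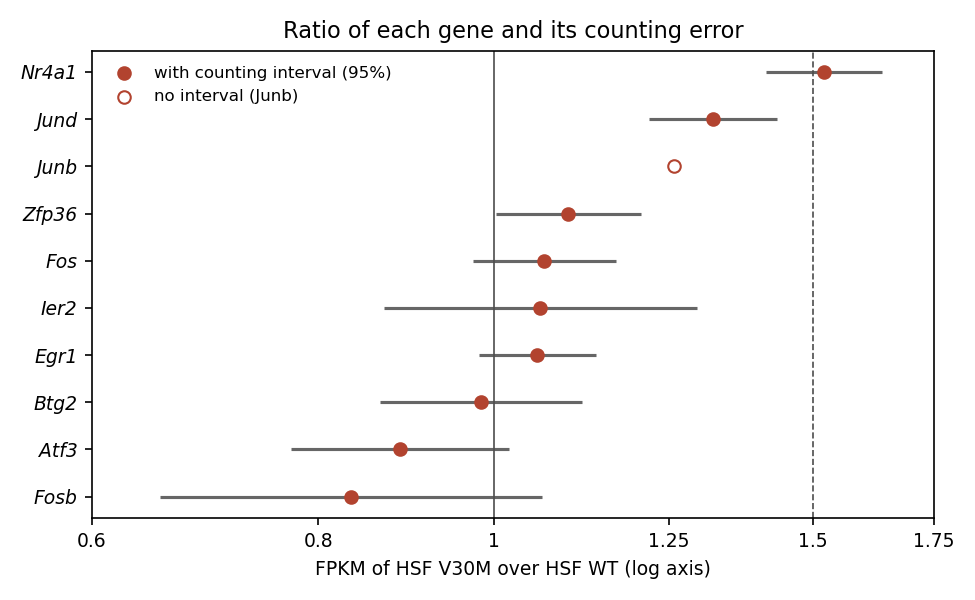
FPKM of HSF V30M divided by that of HSF WT for each gene on a log axis, with 95% counting intervals as bars, a solid line at 1 and a dashed line at 1.5. Bars of Nr4a1, Jund and Zfp36 lie above 1, those of the other 6 genes with a bar cross it, and Junb, with a ratio of 1.26, has no bar. The bar of Zfp36 starts only just above 1, at 1.003.

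The counting intervals of the levels show which neighbours in the order could be told apart by depth. In HSF WT the intervals of Nr4a1 and Fos, of Zfp36 and Egr1, and of Btg2 and Ier2 overlapped. In HSF V30M those of Nr4a1 (43.3 to 47.0) and Fos (27.0 to 30.2) were apart, while Zfp36 and Egr1, Atf3 and Btg2, and Btg2 and Ier2 overlapped. Set beside the 11363 genes whose mean FPKM lies between that of Fosb, 2.13, and that of Jund, 46.0, 7 of the 10 genes fell within the middle part of the ratios, from the 25th to the 75th percentile at -0.21 to 0.22. All 10 lay between the 5th and the 95th percentile, at -0.78 and 0.72.

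Each gene was next placed in its family of paralogues, which were taken from wider lists by family after the values had been seen. Among the nuclear receptors of the Nr4a family, all 3 genes were higher in HSF V30M. Nr4a2 had an FPKM of 61.3 against 44.0 and Nr4a3 one of 1.37 against 0.749, with log2 ratios of 0.47 and 0.44 beside the 0.59 of Nr4a1. Nr4a1 made up 41.8% of the summed FPKM of the family in HSF V30M and 39.8% in HSF WT. The 3 Jun genes were also higher. Jun itself, which drives the repair programme of Schwann cells, had 37.6 and 34.2, a log2 ratio of 0.13, and the family sum was 119.8 in HSF V30M against 97.6 in HSF WT. In the Fos family the sums were 58.2 and 56.6. Fos and Fosl2 held most of them, with Fosl2 at 25.8 and 26.3, and Fosl1 had 1.85 and 1.19.

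In the Egr family Egr1 came after Egr2 in both groups. Egr2, the master regulator of myelination also known as Krox20, had 102 FPKM in HSF V30M against 74.2 in HSF WT, a log2 ratio of 0.45, whereas Egr3 had 6.44 and 6.37. Egr1 thus made up 14.8% of the sum over Egr1 to Egr4 in HSF V30M, beside 18.1% in HSF WT. Zfp36 (0.13) and its paralogues had ratios of either sign. Zfp36l1 was lower in HSF V30M, with 38.0 against 49.02 and a log2 ratio of -0.36, and Zfp36l2 had 21.2 against 18.1, so that the share of Zfp36 in the family sum was 26.1% and 22.1%. Btg1 was likewise lower, with 25.6 against 35.6 and a log2 ratio of -0.46, beside Btg2 at -0.02 and Tob1 at 0.28. None of these paralogues was past the fold of 1.5 on this scale, which understates the ratio of low genes such as Nr4a3 and Fosl1.

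**Figure D3:**
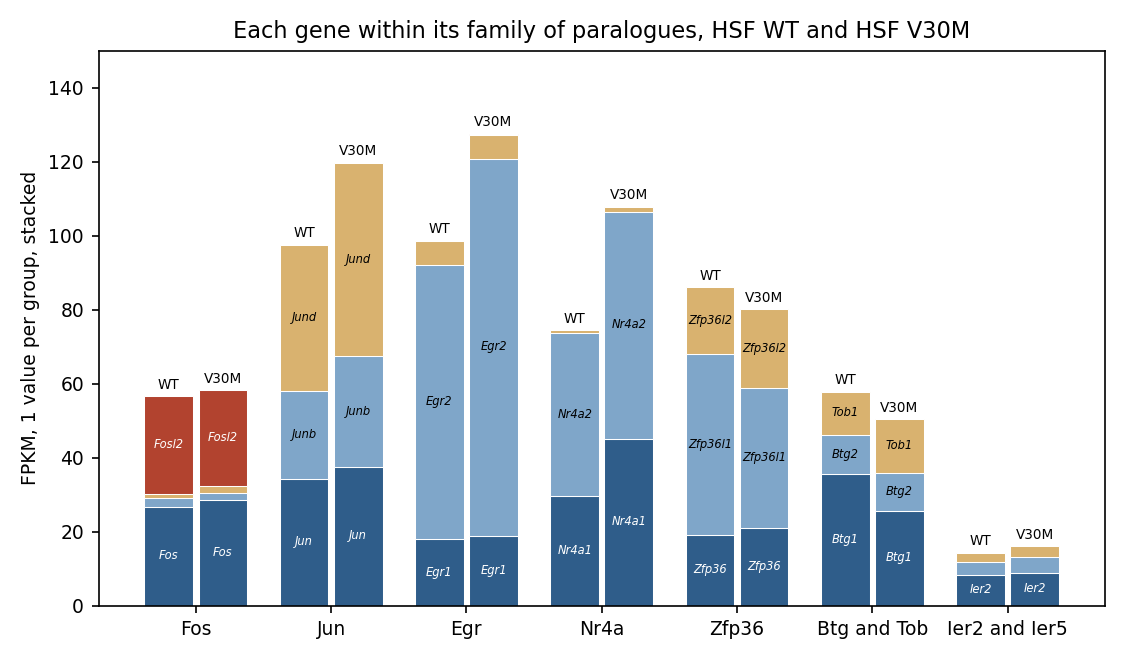
Stacked FPKM of the paralogues in 7 families, with the HSF WT bar on the left and the HSF V30M bar on the right of each pair, and colours marking the place of a gene in its own stack. Egr2 fills most of the Egr bars, at 74.2 and 102, and the Nr4a bars stand at 74.4 and 107.8.

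The wider class was described with 3 lists, of other AP-1 genes, other immediate early transcription factors and other immediate early effectors. They hold 60 genes in all, of which 55 had a mean FPKM of at least 1. The AP-1 list was chosen as AP-1 and partner leucine zipper genes and not by rapid induction, so not every gene in it need be immediate early. Of the 55, 4 were past the fold as higher in the group labelled HSF V30M, which is 7.27% beside the background of 8.22%, and 0 as lower, beside 8.44%. The median log2 ratio of the 55 was 0.22, and 43 of them were above 0, beside 50.4% of all genes with the minimum. These lists were chosen with earlier results of these data known, and this contrast was not tested. In the list of transcription factors, which shares Maff with the AP-1 list, 15 of 17 were above 0 with a median of 0.29, and among the effectors 23 of 27 with a median of 0.22. The other AP-1 genes had 6 of 12 above 0 and a median of 0.02. The 4 genes past the fold were Cebpd, a factor of the acute phase response, Csrnp1, a nuclear protein induced by AXIN1, Rhob, a small GTPase, and Tnfaip3, an inhibitor of NF-kB signalling. Cebpd had 12.3 FPKM in HSF V30M against 6.82 in HSF WT, and Csrnp1 had 7.85 and 4.22. Rhob had 107 and 69.9, and Tnfaip3 8.86 and 5.49. At the other end Nfil3, a leucine zipper repressor, had 3.40 and 5.54, a log2 ratio of -0.57 that did not pass the fold.

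Upstream of these genes, the list of 24 kinases, DNA-binding proteins and their coactivators had a median log2 ratio of 0.04, with 0 genes past the fold as higher and 1 as lower, which is 4.17% beside the background of 8.44%. That gene was Rps6ka3, the kinase RSK2 that phosphorylates CREB, with 14.03 FPKM in HSF V30M against 29.5 in HSF WT. Mapk3, a MAP kinase of the growth factor pathway, had 320 and 224, a log2 ratio of 0.51. Srf, which encodes serum response factor, had 9.30 and 6.498. Downstream, the CCR4-NOT deadenylase that Zfp36 and Btg2 proteins recruit had 11 measured subunits with a median of -0.03, and 1 of them, Cnot6, was past the fold as higher, with 12.1 against 7.64, which is 9.09% beside 8.22%. Of 14 listed mRNAs that Zfp36 is known to bring to decay, 9 were under the minimum. Of the 5 others 1, Ccl2, was past the fold as higher, with 13.1 against 7.91, which is 20% beside 8.22% of all genes. Ier3, Plk3, Lif and Vegfa had log2 ratios from 0.06 to 0.42. Those under the minimum had ratios of either sign, from -0.71 for Cxcl1 to 0.41 for Tnf.

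Lists of responses in which such genes take part were set beside them. Of 12 genes of the Schwann cell response to injury, Atf3 and Jun among them, 8 had the minimum, and their median log2 ratio was -0.03. Shh, a ligand that repair Schwann cells make, was past the fold as higher, with 17.2 against 5.92, and Gfap, an intermediate filament of non-myelinating Schwann cells, as lower, with 2.28 against 8.77, which is 12.5% of the 8 in each direction beside 8.22% and 8.44% of all genes. Of 10 chaperone genes induced by heat shock factor 1, 0 were past the fold and the median was 0.01. Hspa1a and Hspa1b in this list are near-identical copies whose split is uncertain. The 10 reference genes also had 0 past the fold and a median of 0.01, with log2 ratios from -0.58 for Rplp0 to 0.31 for Gapdh. For both lists, 0 of 10 stands beside the same 8.22% and 8.44% of all genes.

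Of 12 genes induced by the glucocorticoid receptor, 5 were past the fold as higher and 0 as lower, with a median of 0.36, beside 8.22% and 8.44% of all genes. They were Per1, Tsc22d3, Klf9, Fkbp5 and Sgk1, with log2 ratios from 0.68 to 1.32. Of 16 clock genes 8 were higher and 2 lower beside the same background, with a median of 0.66. The 6 of largest difference were Dbp, Per2, Per1, Hlf and Ciart as higher and Npas2 as lower, with 0.52 against 3.44. The other lower gene was Arntl, with 4.32 against 8.20. Per1, which is in both lists and is also switched on rapidly by cyclic AMP, had 34.5 in HSF V30M against 13.3 in HSF WT, and Dbp, an output of the clock, had 73.7 and 17.5. Dusp1, an immediate early phosphatase that glucocorticoids induce, had 33.9 and 31.1. The part of daytime and of stress hormones in the ratios of the 10 genes was not tested.

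**Figure D4:**
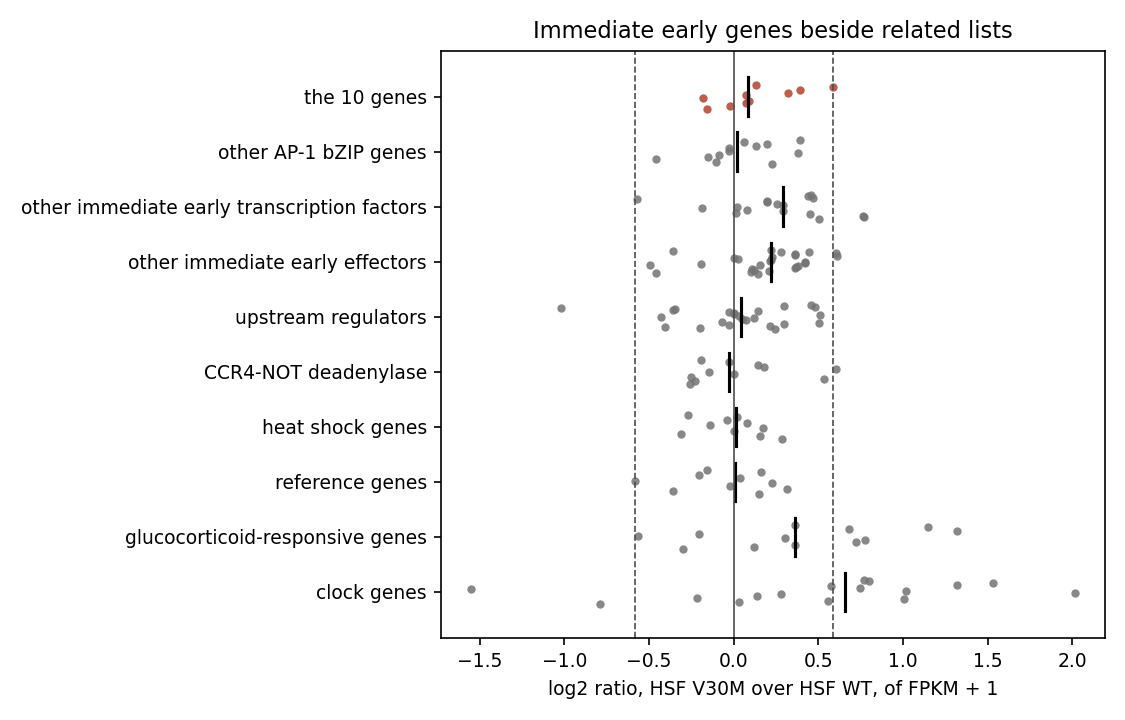
Log2 ratio of FPKM + 1, HSF V30M over HSF WT, with a point for each gene of mean FPKM of at least 1, a black bar at the median of each list and dashed lines at a fold of 1.5 in either direction. The 10 genes (red) reach from -0.18 to 0.59, and the clock genes from -1.55 to 2.01.

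The groups differed as a whole in ways that lie beside these results. Mouse Ttr, which is null in HSF V30M by design, stood at 6.10 FPKM in the group labelled HSF V30M but at a listed 0 in HSF WT. Read as mouse Ttr, these values go against the labels. Reads of the human transgene cannot be told apart from reads of mouse Ttr, so which gene gave the 6.10 is not known. Every direction here is therefore that of the groups as labelled. Hsf1, heterozygous in both groups by design, was past the fold as lower in the group labelled HSF V30M, with 7.94 against 15.0 FPKM and a log2 ratio of -0.84. The defining Schwann cell genes of nerve were present in both groups. Of the measured marker genes, 7 of 7 skeletal muscle and 5 of 5 B cell genes were past the fold as lower in HSF V30M, and 5 of 6 neutrophil genes, with 1 lower, and 5 of 6 erythrocyte genes as higher. The summed FPKM in HSF V30M and in HSF WT, in this order, was 45.8 and 169 over 8 muscle genes, 3.60 and 31.2 over 7 B cell genes, 107 and 31.0 over 8 neutrophil genes and 292 and 101 over 7 erythrocyte genes. Of 8 macrophage genes 3 were lower and 0 higher, with sums of 214 and 348, and so were 3 of 8 adipocyte genes, with sums of 2580 and 3525. The Schwann cell list (sums 12635 and 11046) and the endothelial list (316 and 258) each had 1 of 8 higher, the fibroblast list (2323 and 2433) had 1 of 8 lower, and the smooth muscle and pericyte list (726 and 1332) had 2 of 7 in each direction. All these marker counts stand beside 8.22% of all genes as higher and 8.44% as lower, and 1 of 8 is near that background. No marker gene was listed at 0 in either group. In whole nerve fewer cells of a type and less RNA per cell cannot be told apart, and the part of these cells in the ratios of the 10 genes was not tested.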

How the data were processed

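RNA of sciatic nerve was sequenced by the authors with Ion Torrent protocols and aligned to the mouse genome GRCm38, and their processing notes name STAR, Cufflinks and Cuffdiff. The versions and the gene annotation are not given in the sources used here. The authors deposited 1 table with FPKM per gene and group, a Cuffdiff estimate over the libraries of each group. Its columns of the authors' own comparison (log2 fold change, test statistic, p-value and q-value) were not used. Decimal commas were replaced by points, and 23 genes that Cuffdiff marks as having too many alignments were dropped, none of them among the 10.

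Ratios were taken as log2((HSF V30M + 1) / (HSF WT + 1)), and of the genes that reached a mean FPKM of 1, those beyond a fold of 1.5 on this scale were counted. Depth was read from single-transcript genes of at least 500 bases, alone in their locus, whose low values are multiples of what 1 fragment is worth. Times the effective length in kilobases, 1 fragment was worth an FPKM of 0.0389 and 0.0459 in the libraries of HSF V30M and 0.0480 and 0.0647 in those of HSF WT, which held for 99.4% of 787 and 99.9% of 839 low values within rounding and 0.2%. Since HSF V30M values have 2 decimals, the first share is a weak check. Effective length assumed fragments of 200 ± 80 bases. Fragments are given on the longest coding transcript in the locus, from the larger to the smaller worth, and the exact 95% interval of a ratio uses the smaller numbers.

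The named genes are the 10 genes, and from the lists those past the fold, at most the 6 largest differences of a list, and genes of the 2 highest levels, not all of which are printed. The paralogues, Ier3, Plk3, Lif, Vegfa, Srf, Dusp1, Mapk3, Maff, Nfil3, Hspa1a and Hspa1b beside them were named after the values had been seen, as were genes that share a locus. So were Cxcl1, Tnf, Rplp0, Gapdh and Arntl. The 10 genes and all lists were chosen with earlier results of these data known. Promoters are from RefSeq (GRCm38.p6), transcripts from GENCODE M21 (GRCm38). The scripts ran under Python 3.11.15 with scipy 1.17.1, pandas 2.3.3, numpy 2.4.6 and matplotlib 3.10.9, and were tested on simulated data. The alternatives were a pseudocount of 0.1, no minimum, a minimum of 5, median-of-ratios scaling, scaling to the FPKM of coding genes and a fold of 2.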

Additional observations from a re-analysis of the deposited data

How the results depend on the processing

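No paired analysis was possible because only the authors' value per group was at hand, and leaving out a mouse in turn was not run either. The ratios of the 10 genes kept their direction under every alternative run, and each moved by less than its counting error (for Junb, that of Ier2). A changed minimum leaves a ratio as it is and a changed pseudocount cannot turn its direction, so only the scalings tested the direction. Nr4a1 stayed past the fold of 1.5 in each setting that kept this fold, between 0.586 with median-of-ratios scaling and 0.612 with scaling to coding genes. With a fold of 2 the count of the 10 genes was 0. The median of the 10 ratios lay between 0.08 and 0.10. Of the genes of the 3 lists of the wider class, 4 were higher and 0 lower as reported. With a pseudocount of 0.1 it was 7 higher and 3 lower, beside 10.9% and 10.8% of all genes in that setting. With a fold of 2 it was 0 higher, beside 3.98% of all genes. Of the genes of these 3 lists, 43 of 55 were above 0 under each scaling and pseudocount, and 35 of 42 with a minimum of 5. Over all genes, 1284 were higher and 1319 lower as reported, 732 and 646 with a minimum of 5, and 621 and 616 with a fold of 2, settings that are stricter by construction. For the 141 single genes of the lists other than markers that have a counting interval, 676 values under an alternative moved by less than the counting error and 3 by more, those of Actb, Gfap and Npas2, and none of these genes past the fold turned in direction. The 676 include the settings of no minimum and of a minimum of 5, which leave the ratio of a gene unchanged by construction. Scaling moved every ratio by at most 0.02 in log2. Depth limits Fosb and Ier2 most, with 128 and 171 fragments as the lower numbers in HSF WT.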
